A study of Mus musculus with 54 samples.

Results

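Donor microglia that had taken up alpha-synuclein and then spent 300 min in co-culture were compared with cells given alpha-synuclein alone. The comparison rests on 8 of the 54 libraries of the series, chosen by their titles: 4 of donors at 300 min and 4 of aSyn-treated cells, paired by the replicate number in the title. All libraries came from primary microglia of neonatal C57BL/6 mice, grown from pooled brains for 7 to 10 days with 1% L929 cell supernatant and shaken off an astrocyte layer. Donor dishes received 1 µM alpha-synuclein labelled with the dye Atto-488 for 14 h, and this is the only treatment of the group called aSyn-treated here. Donors at 300 min had the same exposure and were then mixed with acceptors, microglia that had seen no alpha-synuclein and carried a violet cell dye, before both populations were sorted apart by flow cytometry. The groups used as references are these: untreated cells (6 libraries, from 4 replicate numbers), acceptors at 300 min (3 libraries) and donors at 0 min (3 libraries). The protocol does not say whether untreated and aSyn-treated cells went through the sorter, nor how the 0 min groups were handled. Co-culture, the time passed since loading and sorting therefore cannot be told apart in the main comparison.

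Alpha-synuclein is the neuronal protein whose aggregates mark Parkinson disease, and microglia, the resident macrophages of the brain, take it up and degrade it. Microglia can also hand material to neighbouring microglia through thin membrane bridges called tunnelling nanotubes. Immediate early genes are switched on within minutes of a stimulus without new protein synthesis, and many code for short-lived transcription factors and phosphatases. FOXO factors are transcription factors held outside the nucleus by PI3K and AKT signalling, and their known targets in leukocytes include Klf2 and Tsc22d3.

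The 8 libraries held 11406996 to 13939113 counts, and 13466 to 14332 genes had counts in each. The ribosomal RNA precursor Rn45s took 4.78 to 10.99% of counts in replicates 1 to 3 and 15.3 to 17.7% in replicate 4. Replicate 4 also carries facility library numbers apart from the other 3, so it stands apart, and the counts of called genes that lead each paragraph on a gene list are also given without it. Levels are given as CPM, counts scaled to a common library size after TMM scaling, and 3 counts in a library correspond to 0.213 to 0.267 CPM. The 12 microglia and macrophage markers were all detected. Their summed level was 3744 to 8952 CPM in donors at 300 min and 3540 to 7906 CPM in aSyn-treated cells, with no marker called, although a fit of the compared groups alone called 2 higher. The RNA was taken from whole cell populations, so fewer cells expressing a gene and less RNA per cell cannot be told apart. The labels give passage 3 for all libraries of replicate 1, passage 1 for replicate 2 and passage 2 for replicates 3 and 4, so passage follows the replicate number and is the same within each pair. They do not say whether replicate numbers mark separate cultures, so the spread that p-values measure may be technical. That spread was estimated over all 14 groups in the fit.

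Few genes passed the test, and nearly all of those were lower. Of 13169 genes tested, 40 passed an adjusted p of 0.05 (Benjamini-Hochberg) in edgeR's quasi-likelihood test with the replicate number as a block, which is 0.304% of the genes. Of these, 37 were lower in donors at 300 min (0.281%) and 3 were higher (0.0228%). All 40 had the same direction in all 4 same-numbered pairs, and 18 of the 37 were more than 2-fold lower. In 21 of the 37 every donor library lay below every aSyn-treated library, against 1.13% of all genes tested. The called genes were picked by their change in these same libraries, so agreement of pairs and separation of groups are descriptions. At an unadjusted p under 0.05 there were 662 lower and 471 higher genes. Without the block, 4 genes were called (0.0304%): Klf2, Wee1, Mtmr10 and Cxcr4. Without replicate 4, 116 genes were called, and 38 of the 40 stayed called; the exceptions were Dgkh (adjusted p = 0.128) and Slc27a1 (adjusted p = 0.0804), both by edgeR. A fit of the compared groups alone called 166 genes lower and 80 higher, so the predominance of falls was less marked there, and DESeq2 called 67 lower and 11 higher. Leaving out replicate 1, 2 or 3 left 9, 8 or 10 genes called, and 6 genes were called each time whichever replicate was left out: Klf2, Wee1, Fbxo32, Lhfpl2, Tsc22d3 and Adgre5.

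**Figure D1:**
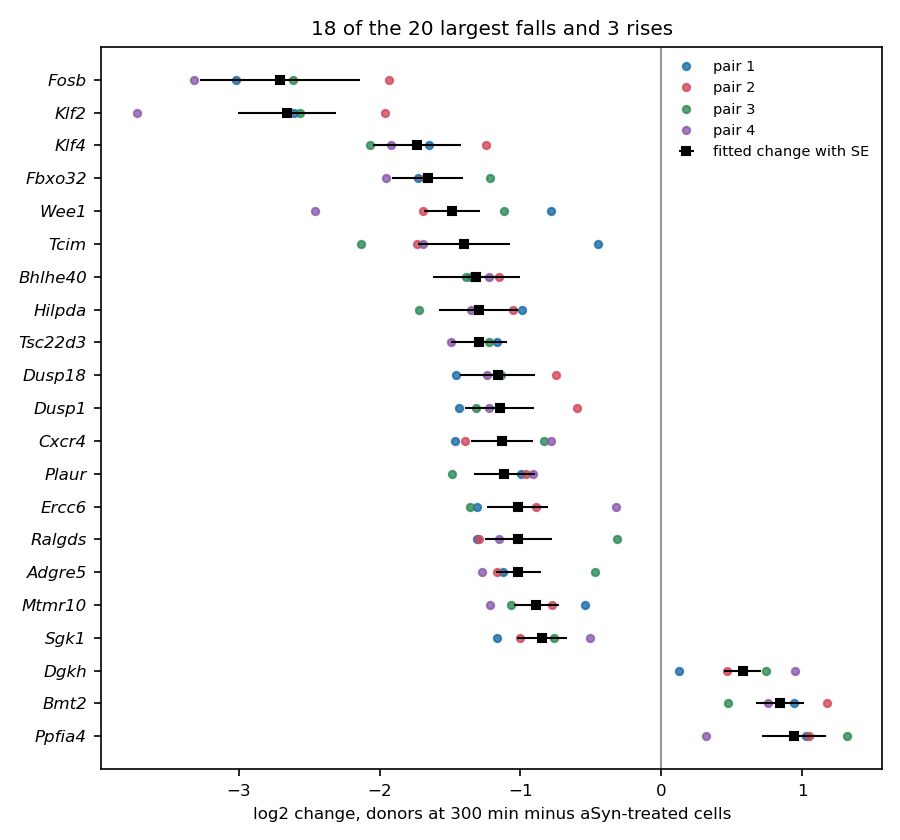
Log2 change in donors at 300 min against aSyn-treated cells for 18 of the 20 largest falls and the 3 rises; squares are fitted changes with their standard errors and circles the 4 same-numbered pairs. All pairs lie on the same side of 0 for each gene shown, with fitted changes from -2.71 (Fosb) to 0.94 (Ppfia4).

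Proximal promoters of 3 members are shown because these genes code for early-response regulators that fell and because their promoters are in the RefSeq table (build GRCm38.p6); which 3 to show was decided after their values were seen. Each stretch runs from 250 to 51 bases before the annotated start, 5′ to 3′ on the gene's strand. Capitals mark the cyclic AMP response element TGACGTCA, the E-box CACGTG and the GC box GGGCGG on either strand.
Klf2 (chr8:72318812-72319011, plus strand): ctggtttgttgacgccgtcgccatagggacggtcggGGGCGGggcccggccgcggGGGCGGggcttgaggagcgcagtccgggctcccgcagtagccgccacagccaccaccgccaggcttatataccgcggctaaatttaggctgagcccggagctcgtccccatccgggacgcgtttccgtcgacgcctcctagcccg
Klf4 (chr4:55532526-55532725, minus strand): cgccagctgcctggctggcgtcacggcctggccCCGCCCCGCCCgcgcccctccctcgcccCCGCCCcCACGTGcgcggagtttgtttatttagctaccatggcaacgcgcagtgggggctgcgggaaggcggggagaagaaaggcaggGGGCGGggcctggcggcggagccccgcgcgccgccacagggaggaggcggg
Dusp1 (chr17:26508523-26508722, minus strand): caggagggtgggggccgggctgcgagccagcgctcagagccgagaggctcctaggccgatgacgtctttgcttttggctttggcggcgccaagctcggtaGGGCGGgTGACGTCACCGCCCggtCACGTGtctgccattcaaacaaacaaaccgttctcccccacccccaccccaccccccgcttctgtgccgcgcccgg

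The Klf2 stretch holds 2 GC boxes and neither of the other motifs. The Klf4 stretch holds 4 GC boxes, a pair of which overlap, and 1 E-box. The Dusp1 stretch holds 1 response element, which the GC box after it follows directly, 2 GC boxes and 1 E-box. Over the whole 250 bases before the start, 27 of the 37 lower genes and 10420 of all genes tested could be matched by symbol. The GC box was found in 22 of the 27 (81.5%) and in 58.3% of all 10420, the E-box in 4 (14.8%) and 8.49%, and the response element in 2 (7.41%) and 2.77%. An AP-1 motif, TGANTCA, was found in 2 (7.41%) and 4.37%. The FOXO motif GTAAACA was found in 0 of the 27 and in 2.22% of all. Fbxo32 and Wee1 are not among the 27, and 27 promoters are too few to judge so rare a motif. The SRF CArG box was found in 2 (7.41%) and 1.16%, and an NF-kB motif in 20 (74.1%) and 61.0%. The NFY motif was less frequent among the lower genes, in 6 (22.2%) against 36.8%. None of these shares was tested. These matches describe letters in the windows and say nothing of binding.

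Early-response transcription factors gave the largest falls. Klf2, a Krüppel-like factor that restrains inflammatory activation of myeloid cells, stood at 202, 88.9, 126 and 108 CPM in aSyn-treated replicates 1 to 4 and at 33.0, 22.7, 21.3 and 8.07 CPM in donors at 300 min. The groups did not overlap, and the lowest aSyn-treated library held more than any donor library. The log2 change was -2.66 ± 0.35 (SE of the fit of all groups), with an adjusted p of 2.49e-05 by edgeR, and -2.40 without replicate 4. The SE of each fitted change comes from that fit and is not the spread of the 4 pairs. Klf4, a related factor, was at 36.0, 33.5, 38.6 and 51.3 CPM in aSyn-treated cells and at 11.4, 14.1, 9.08 and 13.5 CPM in donors at 300 min. Again no libraries overlapped, and the log2 change was -1.74 ± 0.31 (adjusted p = 0.00283 by edgeR). Fosb, which codes for a subunit of the AP-1 transcription factor, was a gene of low level, at 22.5, 12.7, 12.2 and 13.1 CPM before and 2.65, 3.19, 1.87 and 1.18 CPM at 300 min. Its log2 change of -2.71 ± 0.57 was the largest fall among the called genes (adjusted p = 0.0172 by edgeR).

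The other immediate early genes leaned the same way, though few passed the test one by one. Of 58 listed and tested, 6 were called lower and none higher: Klf2, Klf4, Fosb, Sgk1, Dusp1 and Atf3. The fitted change was negative for 53 of the 58, or 91.4%, against 48.9% of all genes. Without replicate 4, 9 of the 58 were called lower, without replicate 1, 2 or 3 the number was 1, 3 or 3, and in the fit of the compared groups alone 20 were lower and 1 higher; without the block only Klf2 was. The list's median log2 change was -0.58, against 0.01 for all genes, and the medians of the 4 pairs were -0.58, -0.54, -0.58 and -0.72. Dusp1, a phosphatase that shuts off MAP kinases, was at 351, 250, 267.3 and 447 CPM in aSyn-treated cells and at 130, 165, 107 and 192 CPM in donors. The donor libraries all lay lower (log2 change -1.15 ± 0.25, adjusted p = 0.0215 by edgeR). Dusp1 shares exon bases with Ergic1 on the opposite strand, and the use of strand in counting is not stated. Sgk1, a kinase related to AKT, fell by 0.85 ± 0.18 on the log2 scale, from 157, 210, 323 and 234.1 CPM to 70.1, 105, 190 and 165 CPM. Its groups overlapped, and its decline shows within pairs. Atf3, a stress-responsive transcription factor, was at 123, 131, 70.4 and 144 CPM in aSyn-treated cells and at 71.4, 88.2, 26.8 and 90.8 CPM in donors (log2 change -0.83 ± 0.19, adjusted p = 0.0409 by edgeR), lower in 4 of 4 pairs with overlapping groups. Classic members such as Fos (-0.67), Egr1 (-0.66), Junb (-0.55) and Jun (-0.38) had negative log2 changes that did not pass, and the list was drawn up with earlier results of these data known. Among those that missed, Nr4a2 (-2.16) and Egr3 (-3.01) had large negative log2 changes that spread widely between pairs (adjusted p = 0.2 and 0.28 by edgeR).

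**Figure D2:**
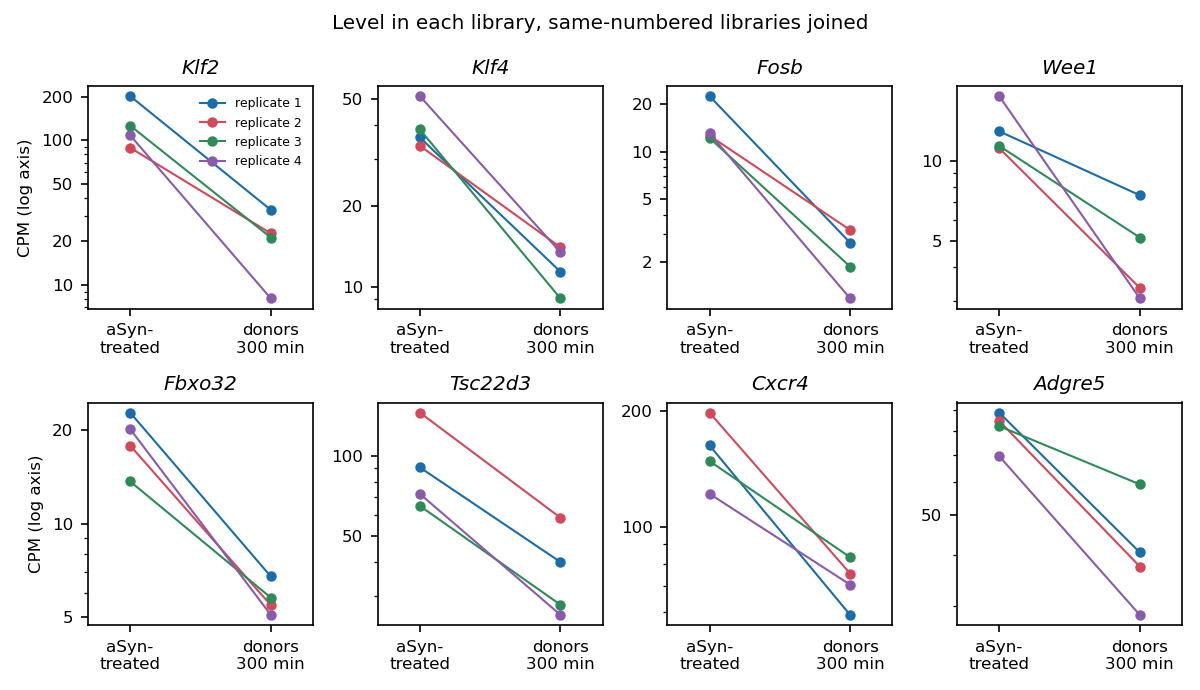
Level in CPM, on a log axis, of 8 called genes in each library; lines join aSyn-treated and 300 min donor libraries of the same replicate number. Every line falls, and no donor library of these 8 genes reaches the lowest aSyn-treated library.

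The list of genes known to respond to FOXO factors was, like the other lists, drawn up with earlier results of these data known. Of its 39 genes tested, 4 were called lower and none higher, against 0.281% of all genes called lower. At an unadjusted p under 0.05, 10 were lower and 3 higher, and the median log2 change was -0.07 with 22 of the 39 negative. Without replicate 4, 6 were called lower, without replicate 1, 2 or 3 the number was 3, 3 or 4, and the fit of the compared groups alone called 8 lower and 1 higher. Fbxo32, a ubiquitin ligase subunit known from muscle wasting, fell from 22.8, 17.8, 13.7 and 20.2 CPM in aSyn-treated cells to 6.77, 5.47, 5.79 and 5.09 CPM in donors. The 4 donor values lay close together and below all aSyn-treated values (log2 change -1.66 ± 0.25, adjusted p = 1.96e-04 by edgeR). Fbxo32 shares exon bases with the annotated gene Gm15943 on the opposite strand. Tsc22d3, known as the glucocorticoid-induced leucine zipper, was at 90.4, 145, 65.0 and 72.0 CPM and then at 40.1, 58.7, 27.8 and 25.5 CPM. Replicate 2 was highest in both groups, and the groups did not overlap (-1.29 ± 0.20, adjusted p = 2.02e-04 by edgeR). Cxcr4, the receptor for the chemokine CXCL12, fell from 163, 198, 148 and 122 CPM to 58.9, 75.5, 83.2 and 70.6 CPM, also without overlap (-1.13 ± 0.22, adjusted p = 0.00600 by edgeR). Klf2 is the fourth called member of this list and is counted among the immediate early genes as well. Cxcr4 was also the only one of 30 chemotactic receptors called, on a list whose median was 0.01.

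Wee1, the kinase that holds cells before mitosis, stood at 12.9, 11.2, 11.4 and 17.5 CPM in aSyn-treated cells and at 7.43, 3.34, 5.16 and 3.06 CPM in donors at 300 min. No libraries overlapped, and the log2 change was -1.48 ± 0.20 (adjusted p = 2.49e-05 by edgeR), or -1.21 without replicate 4. It was the only called gene among 53 cell cycle genes, whose median log2 change was 0.02 with 26 negative, and without replicate 4 there were 3. Wee1 is also under circadian control in several tissues, and the clock list held a further called gene. Bhlhe40, a repressor of the clock, fell from 19.7, 11.9, 19.6 and 12.3 CPM to 7.65, 5.24, 7.39 and 5.17 CPM (-1.31 ± 0.31, adjusted p = 0.0423 by edgeR). With Wee1 and Bhlhe40, 2 of 20 clock genes were called lower, as many as without replicate 4, and 1 without replicate 1, 2 or 3; 16 were negative, and the median was -0.31. Per1 (-0.59 ± 0.20) did not pass.

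Receptors at the cell surface were also among the falls. Adgre5, the adhesion receptor CD97, was at 88.5, 84.5, 82.1 and 69.4 CPM in aSyn-treated cells and at 40.5, 37.5, 59.3 and 28.6 CPM in donors. The groups did not overlap, although replicate 3 changed least (-1.02 ± 0.16, adjusted p = 2.58e-04 by edgeR). Adgre5 shares exon bases with Mir1668 on its own strand and with Ddx39 on the opposite strand. Plaur, the urokinase receptor, went from 35.7, 20.6, 59.2 and 32.7 CPM to 17.8, 10.5, 21.1 and 17.3 CPM (-1.11 ± 0.22), with groups that overlapped. Of 30 genes on the TGF-beta and SMAD list, 2 were called lower, and the median was -0.27 with 23 negative. Without replicate 4 there were 4, and without replicate 1, 2 or 3 none was called in this list (9 had an unadjusted p under 0.05 with all replicates, and DESeq2 called 3). Ski, a repressor of SMAD signalling and one of the called genes, was at 85.3, 73.3, 98.3 and 74.8 CPM in aSyn-treated cells and at 69.9, 59.3, 60.1 and 58.6 CPM in donors (-0.41 ± 0.09, adjusted p = 0.0231 by edgeR), and no libraries overlapped. Skil (-0.81 ± 0.20, adjusted p = 0.0577 by edgeR) missed the threshold by little, and Smad7 (-1.60 ± 0.47) did not pass.

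Of the other large falls, Mtmr10, a member of the myotubularin family, was at 33.7, 38.2, 40.6 and 33.3 CPM and then at 23.1, 22.3, 19.3 and 14.3 CPM (-0.89 ± 0.16, adjusted p = 0.00293 by edgeR). It was the only one of 37 myotubularins and phosphoinositide enzymes called. Hilpda, a lipid droplet protein that inhibits lipolysis, had a log2 change of -1.29, and Ralgds, an activator of the small GTPase Ral, one of -1.02. Dusp18 (-1.16), Tcim (-1.40) and the DNA repair gene Ercc6 (-1.02) were called as well. The remaining 17 lower genes had log2 changes between -0.83 and -0.41 and are named here after their values were seen: Lhfpl2, 1700017B05Rik, Samd8, Fam129b, Zyx, Slc6a8, Slc27a1, Zfand2a, Galnt6, Ski, Mknk2, Baiap2, Lmna, Atf3, Ptpn23, Klf16 and Tbc1d9. They include the focal adhesion protein zyxin, the nuclear lamina gene Lmna, the creatine transporter Slc6a8 and Baiap2, which shapes actin protrusions.

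Only 3 genes were called higher in the main fit. Bmt2, a regulator of the mTORC1 pathway also known as SAMTOR, was at 121, 135, 108 and 75.1 CPM in aSyn-treated cells and at 232.4, 305, 149 and 127 CPM in donors at 300 min (log2 change 0.84 ± 0.17, adjusted p = 0.00903 by edgeR). Ppfia4, a liprin, went from 18.3, 17.2, 9.86 and 7.94 CPM to 37.5, 35.7, 24.7 and 9.95 CPM (0.94 ± 0.22, adjusted p = 0.0488 by edgeR). The diacylglycerol kinase Dgkh went from 37.5, 36.5, 23.7 and 45.0 CPM to 40.9, 50.5, 39.7 and 86.7 CPM (0.58 ± 0.13, adjusted p = 0.0331 by edgeR). All 3 rose within each pair, but their groups overlapped, whereas 0.645% of all genes tested had every donor library above every aSyn-treated one. Of the 4 fits that each left out 1 replicate, Bmt2 was called in 2, Ppfia4 in 1 and Dgkh in none.

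In the 14 lists that describe protein load, energy, lipids, inflammation, microglial state and Parkinson disease, edgeR called none of 506 genes with all 4 replicates and all groups in the fit. At an unadjusted p under 0.05 there were 41, of which 35 were lower, and DESeq2 called 2 lower, the antioxidant gene Osgin1 and the GTPase Rhob. Other edgeR fits did call members. Without replicate 4, 9 were lower: 3 NRF2 antioxidant genes (Nfe2l2, Txnrd1 and Osgin1), 2 genes of the endoplasmic reticulum and integrated stress response (Cebpb and Ppp1r15b), 2 of glycolysis and hypoxia (Vegfa and Slc2a1), Socs3 and Arl4c. The fit of the compared groups alone called 24 lower and 7 higher, among them 8 NF-kB inflammatory genes lower, and 4 homeostatic microglia genes higher and 2 lower. Leaving out replicate 1, 2 or 3, or the block, gave none. With all replicates and groups, none was called among 64 lysosome genes (median log2 change -0.03), 44 autophagy genes (-0.07), 30 heat shock genes (-0.02), 38 genes of the endoplasmic reticulum and integrated stress response (-0.07) or 31 NRF2 antioxidant genes (-0.09). Among the lysosome genes the smallest p belonged to Ctsl, a cathepsin, at -0.33 ± 0.13. Among 71 respiratory chain genes 56 were positive, with a median of 0.08, and among 36 glycolysis and hypoxia genes 27 were negative, with a median of -0.11. Vegfa had a log2 change of -2.32 ± 0.66 and did not pass in the fit of all groups and replicates. In the NF-kB inflammatory list 35 of 45 were negative with a median of -0.16, but the pair medians ran from -0.47 to 0.00; Nfkbid (-0.69 ± 0.21) and Socs3 (-1.23 ± 0.43) had the smallest p. The interferon-stimulated list had 34 of 40 positive and a median of 0.14, and sterol and lipid synthesis 28 of 33 positive and a median of 0.20. LXR targets (11 genes, -0.06), homeostatic microglia genes (28, 0.06), disease-associated microglia genes (30, -0.01) and Parkinson disease genes (27, 0.02) had medians near that of all genes. In the list of nanotube and actin transfer machinery, 1 of 53 was called lower, Baiap2 (-0.70 ± 0.16, adjusted p = 0.0395 by edgeR), and the median was 0.06.

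**Figure D3:**
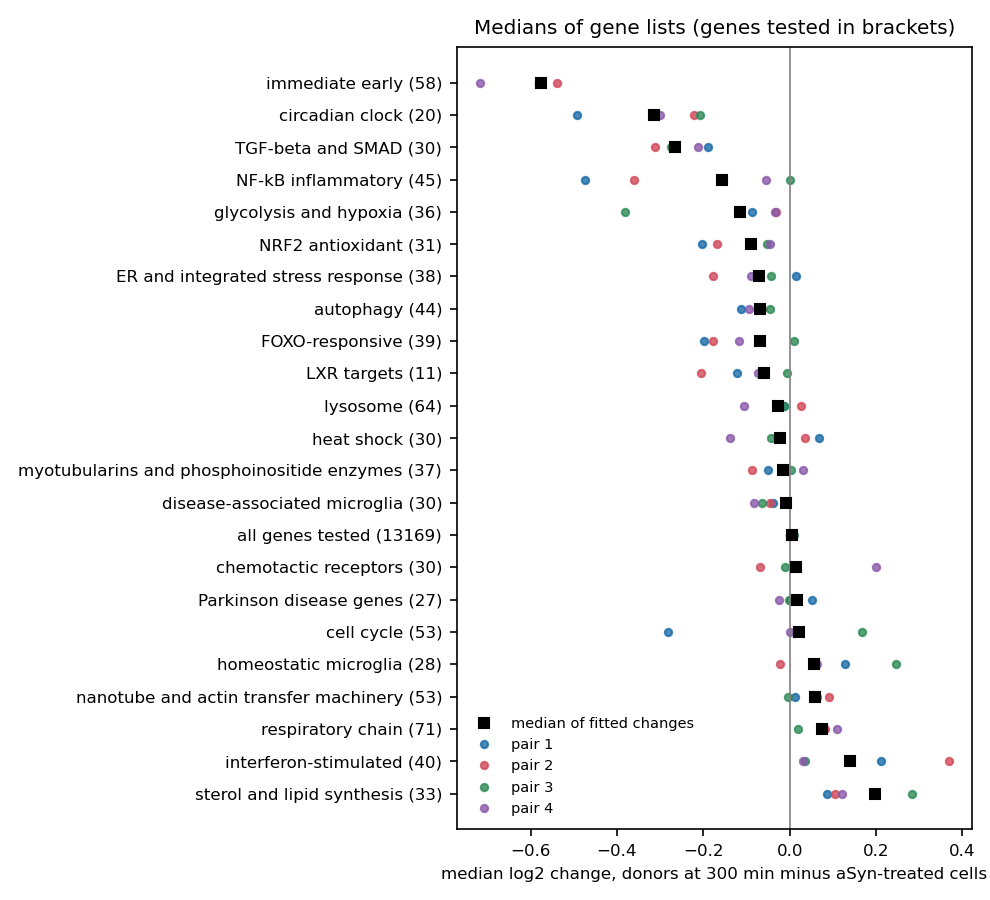
Median log2 change of each gene list in donors at 300 min against aSyn-treated cells, with the number of genes tested; squares are medians of fitted changes and circles medians of the 4 pairs. The immediate early list lies lowest at -0.58, with its 4 pair medians between -0.72 and -0.54, and the median of all genes is 0.01.

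Summed levels of markers of other cell types overlapped between the groups. The 10 oligodendrocyte lineage markers together summed to 155 to 251.4 CPM in donors at 300 min and 142 to 336 CPM in aSyn-treated cells, and 5 of the 10 were negative. Summed astrocyte markers were at 14.2 to 40.1 CPM in donors and 11.3 to 38.2 CPM in aSyn-treated cells. Neuron markers summed to 0.912 to 11.6 and 1.71 to 5.08 CPM, and fibroblast and pericyte markers to 0.912 to 16.8 and 2.51 to 15.2 CPM. Of 6 endothelial markers 4 were counted, and these summed to 59.3 to 107 and 70.7 to 91.0 CPM. Of 6 neutrophil markers only S100a8 was counted, at 0 to 8.46 and 0.284 to 6.72 CPM, highest in replicate 4 of both groups. For border macrophage markers the ranges were 810 to 1065 and 753 to 1027 CPM. The part of other cells in the results was not tested.

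The levels at the other donor times place the fall late. Against aSyn-treated cells, the median log2 change of the 37 lower genes was 0.03 in donors at 0 min, 0.07 at 15 min, 0.03 at 30 min, -0.03 at 60 min, -0.35 at 150 min and -0.89 at 300 min. The number of the 37 with a negative change was 15 at 0 min, 20 at 60 min and 36 at 150 min. Since these genes were picked by the 300 min comparison, and all times share the aSyn-treated libraries, the course is a description. Donors at 0 min were replicates 1, 2 and 3, and donors at 60 min replicates 1, 3 and 4. Mean levels at these times therefore rest on fewer replicates than at 300 min. Klf2 was at 176 ± 79.2 CPM at 0 min (SD, n = 3), 149 ± 18.9 CPM at 60 min (n = 3), 52.3 ± 23.9 CPM at 150 min (n = 4) and 21.3 ± 10.2 CPM at 300 min (n = 4). Fbxo32 was at 20.8 ± 6.09 CPM at 60 min, 8.24 ± 1.46 CPM at 150 min and 5.78 ± 0.718 CPM at 300 min. Adgre5 held at 80.5 ± 15.9 CPM at 150 min and was lower only at 300 min, at 41.5 ± 12.9 CPM. Wee1 lay between, with 9.41 ± 2.51 CPM at 150 min.

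**Figure D4:**
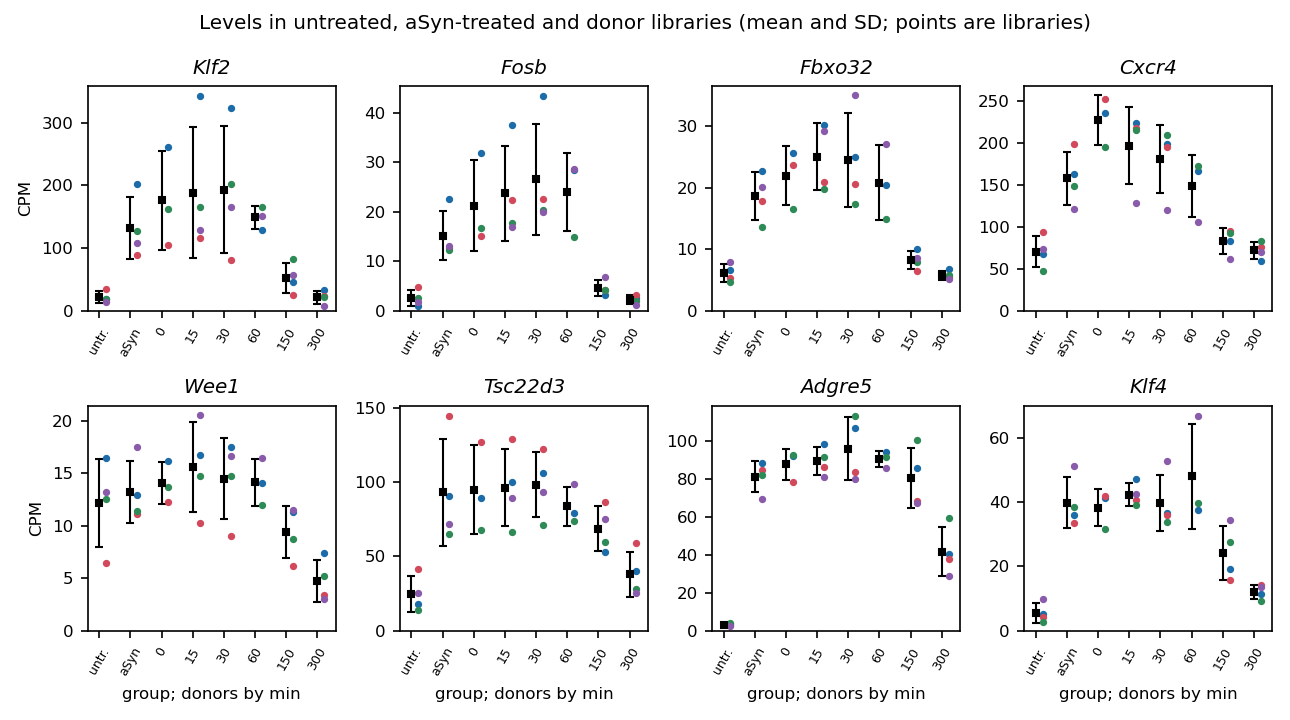
Level in CPM of 8 called genes in untreated cells, aSyn-treated cells and donors from 0 to 300 min; squares and bars are the mean and SD, and coloured points the libraries by replicate number (1 blue, 2 red, 3 green, 4 purple). The mean of each gene is lowest among the donor times at 300 min.

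Donors at 0 min give another reference for the same 300 min libraries, and the 2 comparisons therefore share them. The 0 min donors hold replicates 1, 2 and 3 only, while donors at 300 min also have replicate 4. Against donors at 0 min, 113 genes were called (0.858% of those tested), 92 lower (0.699%) and 21 higher (0.159%), and 31 of the 40 genes were called there in the same direction. The log2 change against 0 min was -2.94 ± 0.36 for Klf2, -2.07 ± 0.26 for Fbxo32, -1.64 ± 0.21 for Wee1, -1.63 ± 0.23 for Cxcr4 and -1.07 ± 0.17 for Adgre5. The median of the immediate early list was -0.75 against 0 min, with 12 of 58 called lower. Without replicate 4, which takes no library from the 0 min donors, 13 were lower and 1 higher.

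For some of the falling genes the 300 min level lay near that of cells that never received alpha-synuclein. Their number was not counted. Untreated cells had 21.5 ± 9.24 CPM of Klf2, 6.14 ± 1.45 of Fbxo32, 70.6 ± 18.8 of Cxcr4, 2.52 ± 1.64 of Fosb and 6.86 ± 2.30 of Bhlhe40 (SD, n = 4 after same-numbered libraries were summed). The donors at 300 min had 21.3 ± 10.2, 5.78 ± 0.718, 72.0 ± 10.2, 2.22 ± 0.884 and 6.36 ± 1.34 CPM of the same genes (SD, n = 4). Other members did not come down as far: Adgre5 was at 3.04 ± 0.621 CPM in untreated cells and at 41.5 ± 12.9 CPM in donors at 300 min, and Klf4 at 5.45 ± 3.05 CPM in untreated cells and between 9.08 and 14.1 CPM in donors at 300 min. Sgk1 also stayed higher, at 80.6 ± 20.1 CPM in untreated cells and 132 ± 54.9 CPM in donors at 300 min. Wee1 went the other way past the untreated level, with 12.2 ± 4.17 CPM in untreated cells and 4.75 ± 2.02 CPM in donors at 300 min. Zyx and Ski also ended below the untreated mean. Untreated cells had 81.1 ± 16.9 and 81.4 ± 12.4 CPM, and donors at 300 min 58.3 ± 7.60 and 62.0 ± 5.32 CPM. These levels are set side by side without a test.

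Whether the change was shared by the acceptors of the same co-cultures was tested as the difference between the donor change and the acceptor change (acceptors at 300 min against untreated cells), which share no libraries. Over all genes 97 were called in this difference (0.737%), 60 negative (0.456%) and 37 positive (0.281%). Of the 40 genes, 12 were called: Klf2, Fbxo32, Lhfpl2, Tsc22d3, Klf4, Samd8, Slc6a8, Sgk1, Galnt6, Dusp18, Klf16 and, in the rising direction, Ppfia4. The difference contains the donor change by which the 40 were picked, so their share among the calls is a description. Klf2 had a log2 change of -2.66 in donors and 0.19 ± 0.36 in acceptors, a difference of -2.85 ± 0.49 (adjusted p = 0.00188 by edgeR). Klf4 had -1.74 in donors and 1.14 ± 0.35 in acceptors, a difference of -2.87 ± 0.47 (adjusted p = 0.00115 by edgeR). The differences were -1.69 for Fbxo32, -1.40 for Tsc22d3 and -1.34 for Sgk1. Acceptors at 300 min held 25.1 ± 8.94 CPM of Klf2 (SD, n = 3), a level like that of the donors at this time, while the reference levels were 21.5 CPM in untreated and 132 CPM in aSyn-treated cells.

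Wee1 was 1 of 2 genes of the 37 that were also called lower in acceptors. It changed by -1.34 ± 0.22 there (adjusted p = 0.00119 by edgeR), and its difference of -0.14 between the populations was not called (adjusted p = 0.897 by edgeR). In acceptors Wee1 was already at 5.81 ± 1.45 CPM at 0 min (SD, n = 3) and at 4.57 ± 0.400 CPM at 300 min (n = 3), whereas donors reached that level at the last time only. Cxcr4 (-1.06, adjusted p = 0.104 by edgeR) and Adgre5 (-0.76, adjusted p = 0.249 by edgeR) had differences that missed the threshold, which does not show that both populations changed alike. Among genes outside the 40, the difference was called with opposite signs in the 2 arms for Rnf149, a ubiquitin ligase (-0.28 in donors, 0.94 in acceptors), the phosphatase Ptpn12 (-0.46, 0.58) and Dmxl2 (-0.50, 0.73). B3galnt1 (0.57 in donors, -0.82 in acceptors), Lbh (0.74, -0.79) and the macrophage transcription factor Maf (0.62, -0.76) went in the other direction. Without replicate 4 the difference was called for 30 genes, 24 of them among the 97, and without the block for none (613 genes at an unadjusted p under 0.05); DESeq2 called 187.

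**Figure D5:**
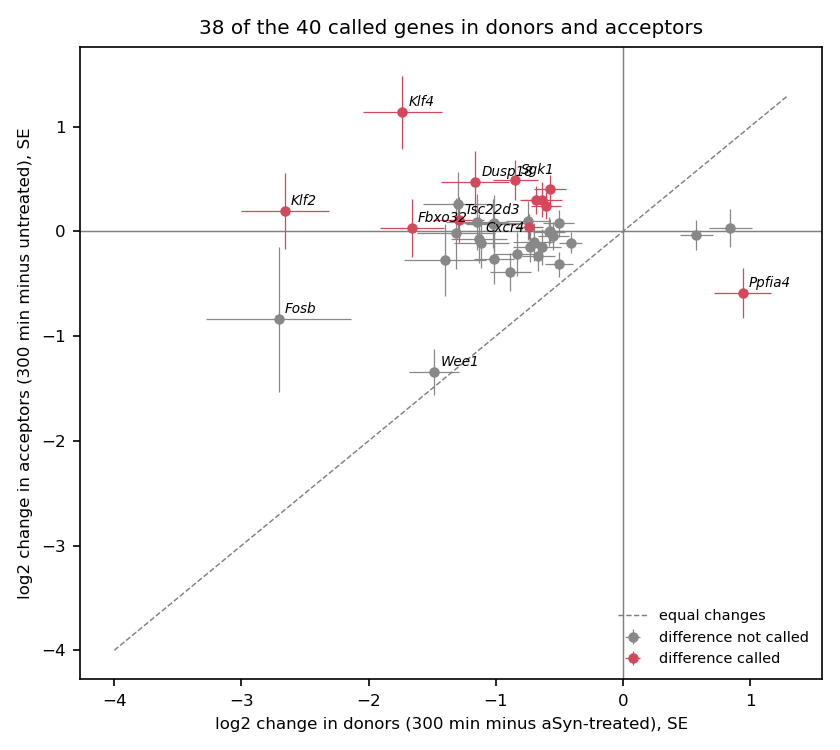
Log2 change of 38 of the 40 called genes in donors (300 min against aSyn-treated cells, horizontal) and in acceptors (300 min against untreated cells, vertical), with standard errors; red marks the 12 genes whose difference between the arms was called and the dashed line equal changes. Most genes lie near 0 in acceptors, while Wee1 lies near the dashed line.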

How the data were processed

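RNA was counted in 54 libraries of mouse microglia, of which 8 form the main comparison. Raw counts of reads, by gene symbol, were deposited by the authors for 16632 genes, per the file headers; a normalised table was not used. The submitters' processing notes name STAR, Partek, DESeq2 and mm10; the counting program, annotation and use of strand are not given in the sources used here. Libraries were QuantSeq 3′ forward, 50 bp single reads, per the labels' protocols, without stated molecular identifiers.

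Counts were tested with edgeR 4.0.16 (R 4.3.3): TMM, genes kept by filterByExpr at min.count 10, and the quasi-likelihood test over all 14 groups (52 units, since same-numbered untreated libraries were summed) with the replicate number as a block. That left 13169 genes; Benjamini-Hochberg adjusted p-values under 0.05 were called. Standard errors are the absolute log2 fold change over the root of F, and log2 CPM of pairs used a prior count of 2. The pairing comes from the labels' shared replicate numbers, and same-numbered libraries deviated together (r 0.442 to 0.752 across genes, against -0.527 to 0.193 for other pairings). Replicates of a group differed by far more than sampling noise (chi-square per degree of freedom at least 34.7), so none was merged.

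Members, gene lists and rules were chosen with earlier results of these data known. Named were the 20 largest falls and up to 10 largest rises among called genes with 1 direction in 4 pairs, the 4 smallest p per list, and for the difference the 5 smallest p per direction. Counts were simulated for the main comparison (13049 genes) from the fit's own means and dispersions. Among changed genes that passed the filter, 62% of 2-fold and 71.1% of 4-fold changes were recovered, with 3 false among 134 calls. Because these counts follow the model, they cannot show how the test behaves where real replicates depart from it. Alternatives included DESeq2 1.42.0. Some genes that the rule named are not reported here, although counts of genes and lists include them. Positions and exon overlaps came from GENCODE M21 and promoters from RefSeq. Besides the overlaps given above, Dgkh shares exon bases with Gm48998 on its own strand. Mtmr10, Fam129b, Zyx, Galnt6, Tcim, Bhlhe40 and Tbc1d9 share some with annotated genes on the opposite strand.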

Additional observations from a re-analysis of the deposited data

Results flagged for a closer look

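Outlying libraries were looked for in 50 groups of 4 values (levels of the 23 genes with the largest changes in either group, library totals and Rn45s shares), and 4 had a highest library far from the next; chance marks about 1 in 20 such groups. Fosb was at 22.5 CPM in aSyn-treated replicate 1, with 13.1 CPM in the next library. Hilpda was at 92.4 CPM in donors at 300 min, replicate 4, with 35.6 CPM next. Dusp18 and Ralgds were highest in aSyn-treated replicate 4, at 23.7 and 97.9 CPM, with 12.8 and 46.5 CPM next. Without replicate 4, Hilpda (log2 change -1.28), Dusp18 (-1.14) and Ralgds (-0.97) were still called lower. Fosb was not called without replicate 1 (adjusted p = 0.261 by edgeR) or without replicate 3 (0.323), and was called without replicate 2 or 4.

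The named genes looked at here were picked by the donor change or by the difference itself, so their number is a description. The change at 300 min differed between donors and acceptors, by the tested difference, for 15 of the named genes. It was more negative in donors for Klf4 (difference -2.87 on the log2 scale), Klf2 (-2.85), Fbxo32 (-1.69), Dusp18 (-1.63), Tsc22d3 (-1.40), Sgk1 (-1.34), Dmxl2 (-1.23), Rnf149 (-1.22) and Ptpn12 (-1.04). It was more positive for Lbh (1.53), Ppfia4 (1.53), Pkib, an inhibitor of protein kinase A (1.49), B3galnt1 (1.39), Maf (1.38) and Exosc10, a subunit of the RNA exosome (0.65). Pkib and Exosc10 fell by 1.10 and 0.61 in acceptors, and their donor changes of 0.39 and 0.04 were not called. Acceptors at 300 min have no replicate 3, so that arm rests on 3 libraries.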

How the results depend on the processing

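No value changed sign among the 40 called genes under the 11 alternatives, and removing Rn45s, other size factors or dropping the low-count filter left each count of called genes within 1.5 times. Counts are given as lower and higher genes for donors at 300 min against aSyn-treated cells (37 and 3), lower and higher genes against donors at 0 min (92 and 21), and all genes for the difference between donors and acceptors (97). With no replicate block they were 4 and 0, 5 and 0, and 0 (366, 635 and 613 genes at an unadjusted p under 0.05), and of the 23 genes with the largest changes 19 were no longer called. With only the groups compared they were 166 and 80, 447 and 293, and 9, and with DESeq2 67 and 11, 122 and 49, and 187. With untreated libraries not summed the difference gave 150. Leaving out 1 replicate gave 8 to 103 lower and 0 to 13 higher genes against aSyn-treated cells, 8 to 182 and 1 to 63 against donors at 0 min, and 18 to 32 in the difference. The highest values of the first 4 ranges came without replicate 4, where 38 of the 40 genes were shared; the cause was not tested. All 23 kept their call under DESeq2, with only the groups compared and without Rn45s. Ppfia4 lost it under other size factors and without the filter, and Dusp1, Ralgds and Ppfia4 when untreated libraries were not summed. List medians kept their sign for the immediate early (-0.62 to -0.54), clock (-0.39 to -0.24), TGF-beta and SMAD (-0.30 to -0.15), sterol (0.13 to 0.21) and interferon-stimulated (0.11 to 0.19) lists. Depth limits genes such as Fosb, with 15 to 42 counts in donor libraries at 300 min.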
